A study of Homo sapiens with 4 samples.

Results

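The pre-mRNAs and mRNAs of 10 hnRNP genes were examined for binding of HNRNPC, one of the hnRNP proteins itself, and for mRNA 3′ ends marked by PABPC4. The genes were HNRNPC and 9 sister genes, namely HNRNPA1, HNRNPA2B1, HNRNPK, HNRNPU, HNRNPD, HNRNPH1, HNRNPM, HNRNPL and HNRNPR. They were chosen by name, and a peak belonged to a gene where the deposited lists gave it that gene's NCBI Gene ID. The 10 genes held 28 of the 9107 distinct peak positions in the HNRNPC list and 80 of the 63507 in the PABPC4 list.

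Both proteins were mapped by cross-linking and immunoprecipitation (CLIP), in which RNA is fixed to bound proteins by ultraviolet irradiation and the fragments that come down with 1 protein are sequenced as tags. The cells were MDA-MB-231, an established line of human triple-negative breast cancer, irradiated at 254 nm with 400 mJ/cm2 and given no other treatment in the labels. There were 2 samples for HNRNPC, by irCLIP, and 2 for PABPC4, by PAPERCLIP, a form of CLIP that starts reverse transcription at the poly(A) tail and so reads mRNA 3′ ends. The samples of a protein were pooled into 1 list, which leaves no replicate error for any value, and no difference was tested. The methods also describe a union of HNRNPC peaks with a published iCLIP set, and the HNRNPC list was read here as the peaks of the 2 samples alone, from its name and its tag heights. The height of a peak is its number of pooled unique tags, in which the abundance of a transcript and its binding cannot be told apart, nor could fewer cells with a transcript be told from less of it per cell. The numbers of reads behind the lists were not analysed here, and the 95% Wilson intervals given with shares cover counting error only. They treat peaks or elements of the same gene as independent, which these need not be.

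As background, hnRNP proteins coat nascent transcripts in the nucleus and act in splicing, 3′ end formation, export and stability. HNRNPC binds runs of U, and is known for occupying the U-rich tracts of Alu elements inserted antisense into introns, where it keeps cryptic exons from being spliced in. Several hnRNP proteins are known to control the splicing of their own pre-mRNAs, and PABPC4 is a poly(A)-binding protein of the mRNA tail.

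To check the line against its known profile, PABPC4 3′ UTR peaks were looked up for marker genes. All 5 mesenchymal or basal markers (VIM, CD44, CAV1, AXL and EGFR) had one, with the tallest between 331 and 10197 tags. Of 5 luminal epithelial markers, ESR1, PGR and FOXA1 had none, while CDH1 had 56 and GATA3 108 tags.

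HNRNPC bound most of the set. There were HNRNPC peaks in 8 of the 10 genes and none were listed in HNRNPA1 and HNRNPK. In the reference, 19.0% of all 20056 protein-coding genes had at least 1 HNRNPC peak. The share was 34.4% of the 9778 with a PABPC4 3′ UTR peak, and 16.5% of the 10711 whose span lay between those of HNRNPA1 (6.36 kb) and HNRNPC (60.3 kb). It was 40.7% of the 1483 genes that lay in that span range and also had a PABPC4 3′ UTR peak of at least 145 tags, the lowest of the maxima of the 10 genes. The count of 8 in 10 stood above each of these shares, but the genes were named with earlier results known and no test was made.

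The peaks were unevenly spread. The HNRNPC gene held 11 of the 28, or 39.3%, on 24.5% of the combined span of 246.1 kb. HNRNPA2B1, whose protein binds A/G-rich motifs and acts in RNA sorting, held 4 peaks within a gene of 10.8 kb, and HNRNPR held 4 within 39.6 kb. HNRNPH1, a G-run binding splicing regulator, held 3. HNRNPL, a CA-repeat binding splicing regulator, held 2, and so did HNRNPM. HNRNPD, known as AUF1 for its binding to AU-rich elements, and HNRNPU, a nuclear scaffold protein, had 1 each. Per 10 kb of gene, HNRNPA2B1 had 3.70 peaks, HNRNPC 1.82, HNRNPH1 1.46, HNRNPL 1.25 and HNRNPR 1.01, against a median of 0.261 over all 3814 protein-coding genes with a peak. HNRNPU stood at 0.702, HNRNPD at 0.465 and HNRNPM at 0.453. The median span was 63.7 kb for genes with a peak, which held a median of 1, and 18.3 kb for the 10 genes. A single peak in a gene far shorter than 63.7 kb therefore exceeds the median density, as in HNRNPU and HNRNPD.

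**Figure D1:**
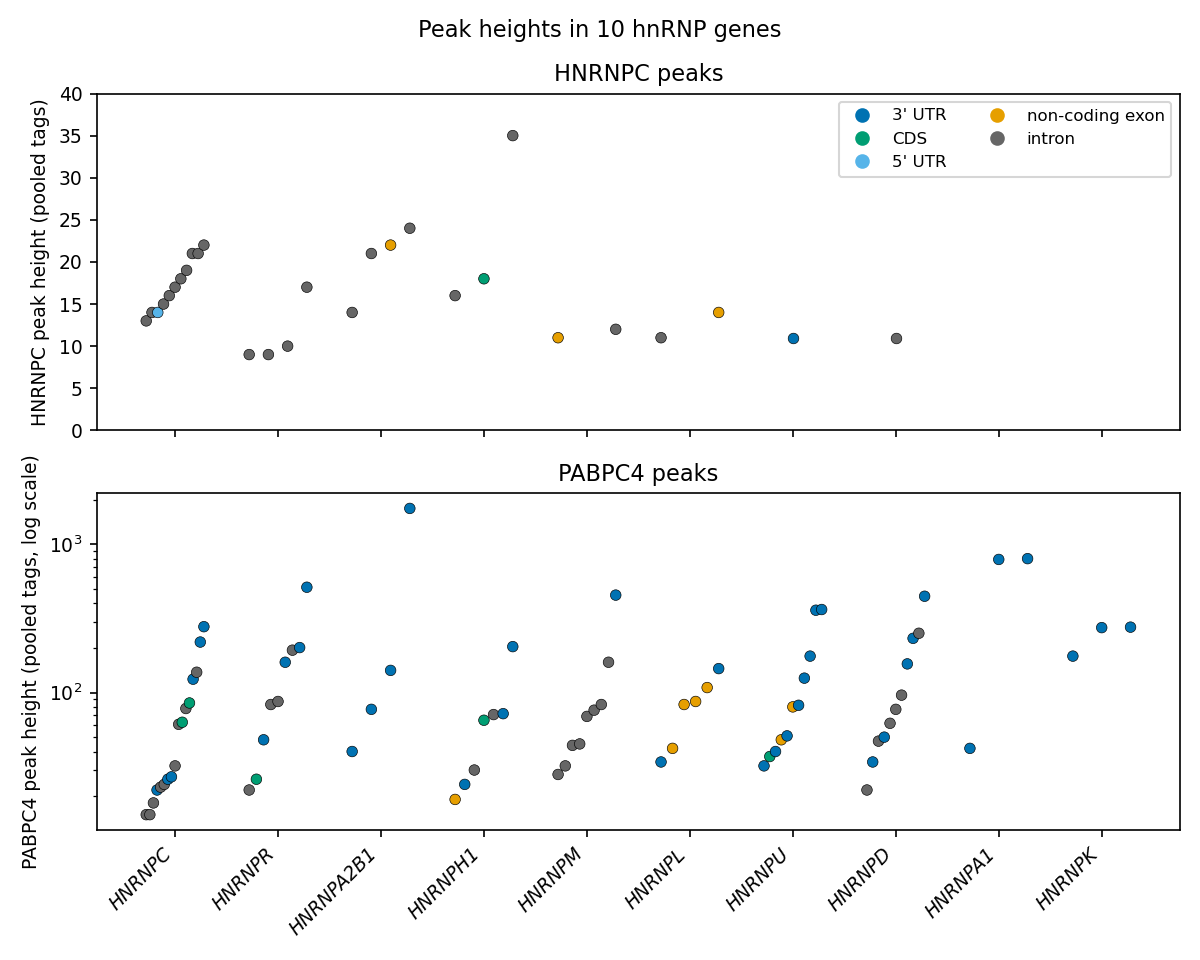
Height of every HNRNPC peak (top, pooled tags, linear axis) and every PABPC4 peak (bottom, pooled tags, log axis) in the 10 hnRNP genes, coloured by the feature at the peak centre; points of a gene are spread sideways in order of height only to keep them apart. HNRNPC peaks lay between 9 and 35 tags, while PABPC4 peaks lay between 15 and 1745, and the tallest PABPC4 peak of each gene was in a 3′ UTR.

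The 28 peaks were of moderate height. They ranged from 9 to 35 tags with a median of 15.5, compared with 11 for the whole list, whose tallest peak had 629. The tallest of the set was in HNRNPH1. By the feature at the peak centre, 22 of 28 were intronic (78.6%, interval 60.5 to 89.8%), against 85.5% of the list. The other 6 fell in exons, where a non-coding exon means an exon of a transcript that is not annotated as protein-coding. These exon peaks lay in 6 genes, HNRNPC, HNRNPA2B1, HNRNPU, HNRNPH1, HNRNPM and HNRNPL, whereas 9.18% of genes with a PABPC4 3′ UTR peak had an HNRNPC exon peak. That 9.18% was not matched for gene span or 3′ UTR peak height. With transcripts of protein_coding type only, 3 genes remained with an exon peak. The share of other genes was not computed under that rule, so the count of 3 has no background here. A 3′ UTR peak was found in 1 of the 10 genes, HNRNPU, and in 3.80% of genes with a PABPC4 3′ UTR peak.

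Much of the binding was on antisense Alu-like sequence, found by matching each peak with 100 nt on either side to 7SL RNA, from which Alu elements derive. Such sequence, in antisense to the transcript, lay at 18 of the 28 peaks (64.3%, interval 45.8 to 79.3%), against 32.8% of the list. Among intron peaks, the share was 17 of 22 (77.3%, interval 56.6 to 89.9%), against 34.6%. The 18 peaks came from 4 genes, HNRNPC with 11, HNRNPA2B1 with 3, and HNRNPH1 and HNRNPR with 2 each. Without the HNRNPC gene the share was 7 of 17 (41.2%, interval 21.6 to 64.0%), nearer to the 32.8% of the list. These 7 came from HNRNPA2B1, HNRNPH1 and HNRNPR alone, and the difference from the list was not tested. A run of at least 5 U, looked for from 50 nt before the 5′ edge of the peak to its 3′ edge, was present at 19 of 28 peaks (67.9%, interval 49.3 to 82.1%) and at 39.7% of the list, whose peaks had a median width of 101 nt against 117 nt here. Within the peak alone it was present at 12 (42.9%), against 13.3% of the list. It stood at 15 of the 18 antisense Alu-like peaks and at 3 of the 9 peaks with no Alu-like sequence. In the list, it stood at 74.9% and 22.6% of the same kinds of peak. The sequence GUGUCA, which lay within 20 nt of the 3′ edge of 39.7% of all HNRNPC peaks, was at 0 of these 28, which allows a share of up to 10.7% if the limit of a count of 0 is set at 3 counts. Every HNRNPC share, count and median given above or below for the list or for other genes includes the peaks with GUGUCA. That holds for the shares of genes with an HNRNPC peak as well as for features, heights, Alu-like sequence and U runs. None was recalculated without those peaks, so the set and its backgrounds differ in make-up.

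The HNRNPC gene on chromosome 14 is shown first because HNRNPC protein was found on its own pre-mRNA. The sequence at 1 of its 2 peaks of 21 tags follows, as an example of U runs beside Alu-like sequence, with runs of 5 or more U in capitals. It covers 90 nt, from 50 nt before the 5′ edge to 40 nt inside the peak, and was read from GRCh38 on the minus strand and written 5′ to 3′.
HNRNPC, 21 tags, chr14:21254024-21254113: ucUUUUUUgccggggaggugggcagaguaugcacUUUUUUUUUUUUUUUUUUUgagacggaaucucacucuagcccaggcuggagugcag

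The 11 peaks of the HNRNPC gene were 13 to 22 tags high, with a median of 17. All 11 were antisense Alu-like and 10 of 11 had a U run. The tallest, at chr14:21244960-21245072, began 34 nt downstream of the start of a run of 22 U. By the canonical transcript, 9 peaks lay in intron 2, which is 29.1 kb long, and 2 in intron 1, of 5.96 kb. One of the pair in intron 1, at chr14:21264925-21265025, was inside a 5′ UTR exon of 1 other protein-coding transcript. No HNRNPC peak was listed in the 25.1 kb from exon 3 to the gene's 3′ end.

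Antisense Alu-like elements were not confined to the bound introns. The gene had 40 of them, at 6.63 per 10 kb, whereas the median over genes with a PABPC4 3′ UTR peak was 2.64 per 10 kb. An HNRNPC peak lay within 100 nt of 12 of the 25 elements upstream of exon 3, and of 0 of the 15 elements farther downstream. Over the whole gene this was 12 of 40 (30.0%, interval 18.1 to 45.4%). Among all genes with a PABPC4 3′ UTR peak, 1.52% of 183317 antisense Alu-like elements had a peak within 100 nt, and in the genes among them that had any HNRNPC peak it was 2.67%. Of 4930 such genes with at least 10 elements, 3572 had no element near a peak. The share of the HNRNPC gene was reached in 6, itself included. These shares over other genes were not matched to the HNRNPC gene for 3′ UTR peak height.

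**Figure D2:**
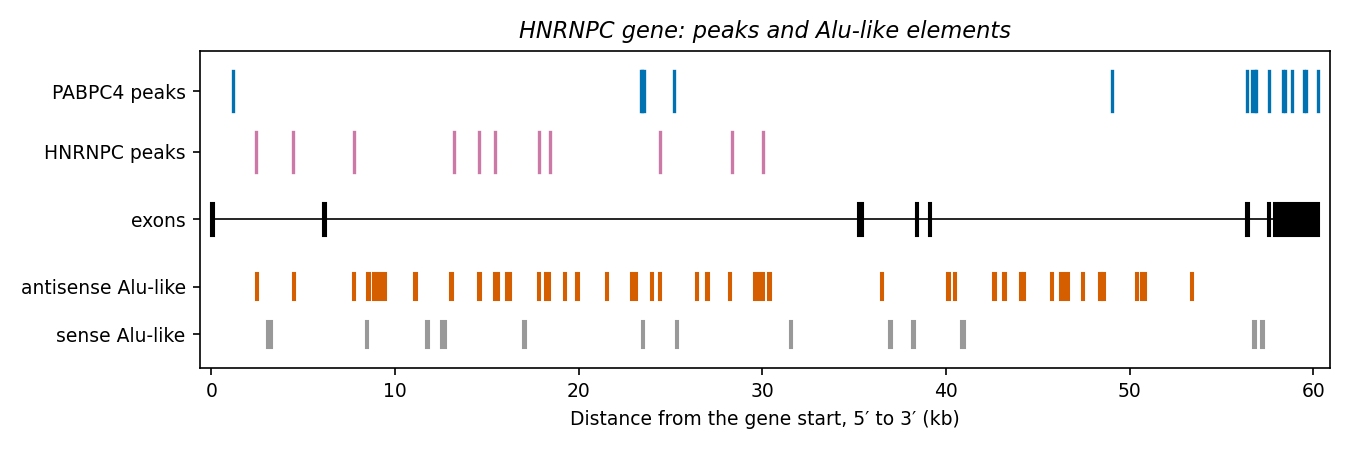
Map of the HNRNPC gene in kb from its start, drawn 5′ to 3′, with the centres of PABPC4 and HNRNPC peaks (vertical lines), the exons of the canonical transcript (black) and the Alu-like elements on the antisense and sense strand; the shortest boxes are widened to remain visible. All 11 HNRNPC peaks lie upstream of exon 3 at antisense elements, while the 15 antisense elements downstream of it have none and the PABPC4 peaks gather at the 3′ end.

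Few genes of like span or repeat content had as many HNRNPC peaks. Of 2380 protein-coding genes within 25% of the span of the HNRNPC gene, 662 (27.8%) had a peak and 10 had 11 or more, HNRNPC included. Over all genes, 92 had at least 11. Of 2338 genes of like span with a repeat count, 183 had 40 or more antisense Alu-like elements. A total of 88 of the 183 had a peak and 4 had at least 11. These comparison genes did not need a PABPC4 3′ UTR peak, so genes with little or no transcript may be among them. No count matched for 3′ UTR peak height was made. The protein-coding genes nearest to HNRNPC by peak counts in the lists were NEK6, a mitotic kinase, with 11 HNRNPC and 17 PABPC4 peaks, PIP5K1A, a phosphoinositide kinase, with 11 and 16, and RABL6, a small GTPase-like protein, with 11 and 18. In all, 17 other genes had the same HNRNPC count.

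**Figure D3:**
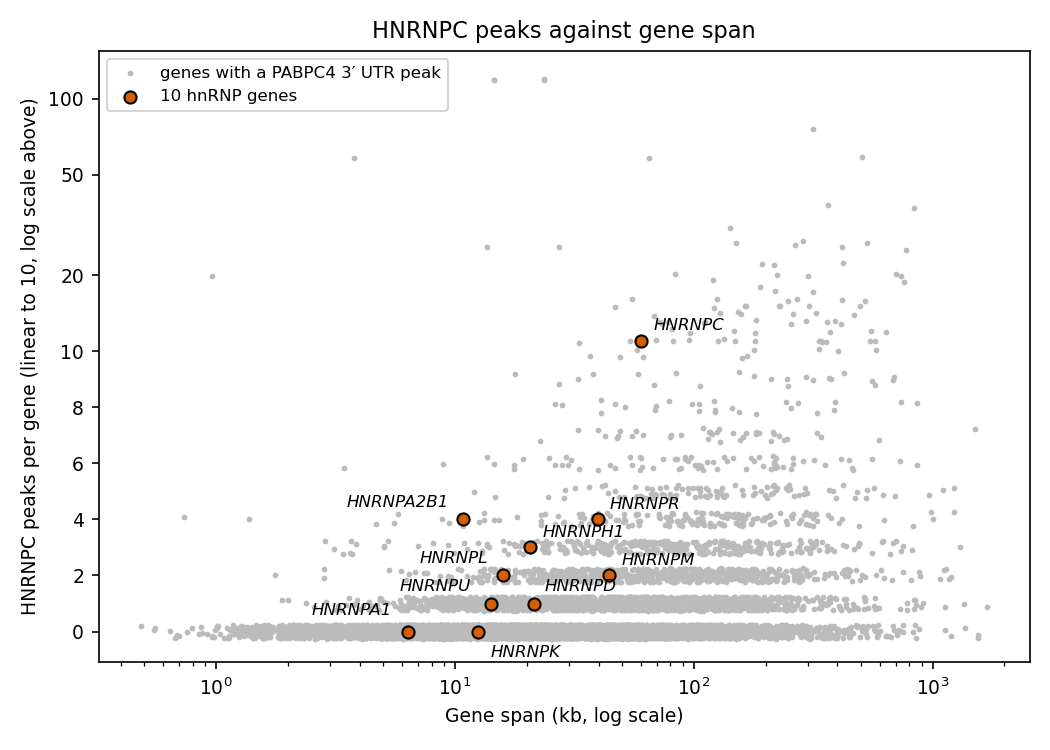
HNRNPC peaks per gene (vertical axis, linear to 10 and logarithmic above) against gene span in kb (log axis) for the 9778 protein-coding genes with a PABPC4 3′ UTR peak (grey, moved slightly up or down at random so that points do not coincide) and the 10 hnRNP genes (orange). HNRNPC with 11 peaks and HNRNPA2B1 with 4 lie near the upper edge for their span, whereas HNRNPA1 and HNRNPK are at 0.

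The repeats also bear on how surely a peak can be placed. The central 50 nt of 5 of the 11 peaks matched at least 1 other place in the genome with up to 2 mismatches, and the 18-tag peak in intron 1, the one peak of the gene without a U run, had 2151 such places. The other 6, with the tallest among them, had none. Over the 28 peaks of the set, 8 had another place, and the remaining 20 still covered all 8 genes.

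The peaks of the sister genes are described in 3 groups, drawn up after their values were seen, of which the first was HNRNPC-like binding at antisense Alu-like elements. The following sequences show it for the tallest HNRNPA2B1 peak and for the HNRNPH1 peak that was the tallest of the set, with window and capitals as above, both on the minus strand of GRCh38.
HNRNPA2B1, 24 tags, chr7:26194653-26194742: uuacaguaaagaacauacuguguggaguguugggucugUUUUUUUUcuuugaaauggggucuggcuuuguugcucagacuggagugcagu
HNRNPH1, 35 tags, chr5:179622698-179622787: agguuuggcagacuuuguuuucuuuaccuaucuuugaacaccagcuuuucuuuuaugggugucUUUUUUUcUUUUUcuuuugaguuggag

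HNRNPA2B1 had 3 antisense Alu-like elements and HNRNPC peaks of 21, 24 and 14 tags at all 3, within intron 7. The 14-tag and 21-tag peaks began 7 and 9 nt after the start of their longest U run, of 5 and 18 U, and the 24-tag peak 12 nt after the start of a run of 8. All 3 had a U run and no second place in the genome. In HNRNPH1, 2 antisense elements lay inside the canonical transcript and both were near a peak, while none of the 12 in the 11.1 kb that the reference gene extends upstream of it was. The 35-tag peak of HNRNPH1, at chr5:179622341-179622737 in intron 2, was 397 nt wide, and its centre matched 10636 other places, so its placement is uncertain. HNRNPR had 19 antisense elements and peaks near 2 of them, with 17 and 9 tags. It had 2 further intron peaks, of 9 tags at sense Alu-like sequence and of 10 tags with a run of 17 U and no Alu-like sequence. The centre of the 17-tag peak matched 584 other places. HNRNPM had 21 such elements and HNRNPL 4, with no HNRNPC peak near any. HNRNPU and HNRNPD had 1 each, also without a peak, and HNRNPA1 and HNRNPK, the genes with no HNRNPC peak, had no antisense element. Over the 9 sister genes, 7 of 63 elements were near a peak (11.1%, interval 5.49 to 21.2%).

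The second pattern was binding near the 5′ end of the canonical transcript, a grouping by position. These peaks were GC-rich, but so were peaks of the other groups. The 12-tag HNRNPM peak had 62% G or C and the 18-tag peak of the HNRNPC gene 62.6%. No GC content was computed for the list. The sequences below are shown for contrast with the U-rich windows above, since neither holds a run of 5 U. They were read on the minus strand over the same 90-nt windows.
HNRNPA2B1, 22 tags, chr7:26200505-26200594: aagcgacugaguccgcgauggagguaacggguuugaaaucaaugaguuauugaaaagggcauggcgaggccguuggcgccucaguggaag
HNRNPD, 11 tags, chr4:82373182-82373271: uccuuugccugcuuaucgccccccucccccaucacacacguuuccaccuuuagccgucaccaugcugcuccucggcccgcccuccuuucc

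The 22-tag HNRNPA2B1 peak, at chr7:26200285-26200544, was centred 332 nt from the transcript start, in intron 1, which 2 transcripts with retained introns carry as exon. It was 63.8% G or C and held no run longer than 3 U. The single HNRNPD peak, of 11 tags, was centred 825 nt from the start in intron 1, reached into coding sequence and was 63.6% G or C. Its longest U run, of 6, lay 82 nt inside the peak, beyond the window shown. In HNRNPH1, peaks of 18 and 16 tags followed each other 555 and 835 nt from the start of the canonical transcript. That start lies 11.1 kb inside the reference gene, so these peaks are near its middle. The first was centred in coding exon 2 and the second in intron 2, with 64.1% and 64.7% G or C. The 18-tag peak had a run of 7 U and no Alu-like sequence. The 16-tag peak had no run of 5 U, but antisense Alu-like sequence lay within its window, so it is also among the 18 antisense Alu-like peaks. It was the one HNRNPC peak of the set that overlapped a PABPC4 peak, a peak of 19 tags and 12 nt at chr5:179622886-179622897. The 9 peaks with no Alu-like sequence had a median of 61.2% G or C and of 11 tags, whereas the 18 antisense Alu-like peaks had medians of 55.9% and 17 tags.

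The third pattern was binding in internal introns and in exons of alternative transcripts, with neither Alu-like sequence nor a U run. HNRNPL and HNRNPM had peaks of this kind, shown here for the taller peak of each, the first on the minus and the second on the plus strand.
HNRNPL, 14 tags, chr19:38841947-38842036: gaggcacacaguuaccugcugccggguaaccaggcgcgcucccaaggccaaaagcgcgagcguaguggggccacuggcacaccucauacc
HNRNPM, 12 tags, chr19:8481707-8481796: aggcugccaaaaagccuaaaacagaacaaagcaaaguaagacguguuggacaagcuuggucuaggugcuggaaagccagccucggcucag

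Both HNRNPL peaks lay in intron 6, the intron through which HNRNPL protein is known to control its own mRNA. The 14-tag peak at chr19:38841871-38841986 was in an exon of 1 retained-intron transcript, 106 nt downstream of a PABPC4 peak of 108 tags in the same intron, and the 11-tag peak was at chr19:38843256-38843334. In HNRNPM, an 11-tag peak in intron 5 fell in a retained-intron exon, and a 12-tag peak in intron 12 did not. HNRNPU had the one 3′ UTR peak of the set, 11 tags at chr1:244850641-244850726. It lay 263 nt downstream of the nearest PABPC4 peak, and its first 30 nt, on the minus strand, held no U run.
HNRNPU, 11 tags, chr1:244850697-244850726: cacauacauguuaaggccugacaauagguu

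**Figure D4:**
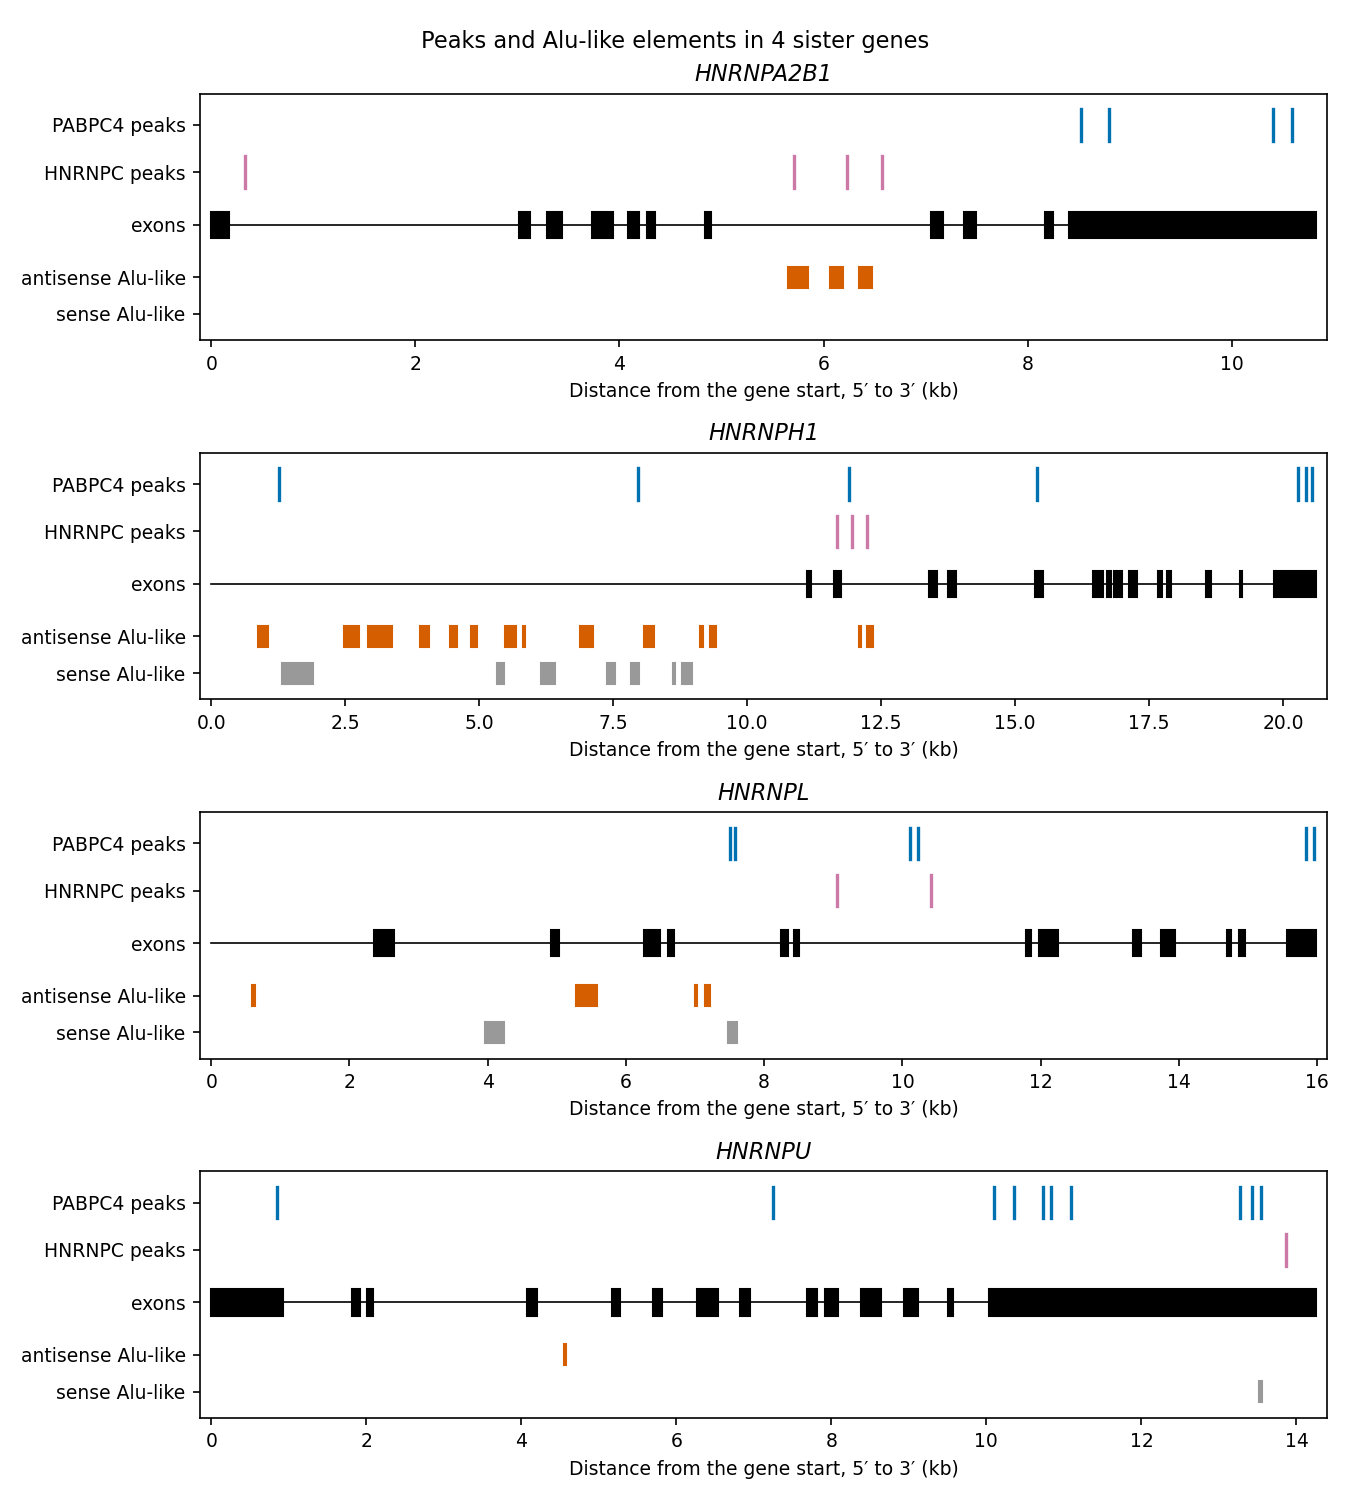
Maps of 4 sister genes in kb from the gene start, with the same rows as the map of HNRNPC. The panels show HNRNPA2B1 with 3 HNRNPC peaks at its 3 antisense elements, HNRNPH1 with peaks around exon 2, HNRNPL with HNRNPC and PABPC4 peaks in intron 6, and HNRNPU with its single HNRNPC peak in the 3′ UTR.

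Against the other hnRNP and hnRNP-like genes, the 10 had HNRNPC peaks in a larger share. Of 17 such genes, 7 had an HNRNPC peak (41.2%), with 15 peaks in all, and 1, HNRNPUL2, had a 3′ UTR peak. HNRNPUL1 had 3, and SYNCRIP, the closest relative of HNRNPR, had 2 of up to 20 tags. RALY, a relative of HNRNPC, had 1 of 9 tags. The difference between the sets was not tested.

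PABPC4 marked the 3′ ends of all 10 genes. Each had at least 1 PABPC4 3′ UTR peak, as did 48.8% of all protein-coding genes, and in each at least 1 such peak had its 3′ edge within 50 nt of an annotated transcript end, as did 84.5% of genes with a PABPC4 3′ UTR peak. The tallest 3′ UTR peak per gene ranged from 145 tags in HNRNPL to 1745 in HNRNPA2B1. Its median was 404.5 tags over the 10 genes, 310 over the 17 other hnRNP genes and 73 over all genes with one, and each of the 10 was above that last value. Of the 80 PABPC4 peaks, 39 were in 3′ UTRs (48.8%, interval 38.1 to 59.5%) against 29.8% of the list, and 29 were in introns (36.2%, interval 26.6 to 47.2%) against 60.2%. Without the peaks whose centre matched another place in the genome, 47 were left, of which 23 were in 3′ UTRs (48.9%).

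The last 30 nt of the tallest 3′ UTR peak of each gene show what the marked ends look like. Capitals mark the poly(A) signals AAUAAA and AUUAAA, and the strand is plus for HNRNPA1 and HNRNPM and minus for the rest.
HNRNPA2B1, 1745 tags, chr7:26191843-26191872: augauuuAAUAAAauaauucuaaaggaaau
HNRNPA1, 800 tags, chr12:54284861-54284890: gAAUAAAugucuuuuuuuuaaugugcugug
HNRNPR, 513 tags, chr1:23309770-23309799: aucuauucaaaacauuaccuauuucaaauu
HNRNPM, 454 tags, chr19:8489081-8489110: uaugacuuugauAAUAAAuaccgguuccug
HNRNPD, 446 tags, chr4:82353830-82353859: ugguuuuuuAAUAAAuccuuuuguauaaaa
HNRNPU, 363 tags, chr1:244854133-244854162: aucacaacagaaguaaaauguugcuuugua
HNRNPC, 278 tags, chr14:21210936-21210965: uuaacAAUAAAaaggauguaugguuuuuau
HNRNPK, 276 tags, chr9:83968255-83968284: aaaaaaaaaagaugaaaaaaguuccugugg
HNRNPH1, 204 tags, chr5:179614180-179614209: uugucaAAUAAAuccuccuuuuaaaaacug
HNRNPL, 145 tags, chr19:38836456-38836485: auuguacaugugauuuuuuuuuuuccuguu

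A poly(A) signal in the last 40 nt of the peak, or in the whole of a shorter peak, was present at the tallest peak of 6 of the 10 genes, and that peak was at an annotated end in 7. The same shares were not computed for the tallest peak of all genes, so these counts have no background here. Over all 39 3′ UTR peaks, 19 had a signal (48.7%, interval 33.9 to 63.8%), against 47.1% in the list, and 22 were at an annotated end (56.4%, interval 41.0 to 70.7%), against 54.5%. The signal was found at 15 of the 22 peaks at annotated ends (68.2%) and at 4 of the 17 away from them (23.5%), against 65.9% and 24.6% in the list. In these shares of 3′ UTR peaks the set stood close to the list.

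The genes differed in their number of PABPC4 3′ UTR peaks. A peak is not taken as a separate end in use, since some adjoin each other and others lay away from annotated ends. HNRNPM had a single 3′ UTR peak, of 454 tags, exactly at an annotated end. HNRNPA1 had 3, all with a signal and all at annotated ends. The first 2 were nearly equal at 800 and 790 tags and 363 nt apart, and the third, the most distal, had 42. The first pair matched 4 and 21 other places in the genome, so part of their tags cannot be assigned with certainty to HNRNPA1. In HNRNPA2B1, one peak held 87.1% of the 2003 tags of its 3′ UTR peaks. It ended 1447 nt before the nearest annotated transcript end, with AAUAAA in its last 30 nt, and the 2 peaks at annotated ends farther downstream had 141 and 77 tags.

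The HNRNPC gene had 6 PABPC4 3′ UTR peaks spread over 1896 nt. Those of 278, 219 and 123 tags, each within 50 nt of an annotated end and each with a signal, were the proximal, middle and most distal of the annotated ends marked. The central 50 nt of the 278-tag and 219-tag peaks matched 4 and 6 other places in the genome, so their tags cannot be assigned with certainty to HNRNPC either. The other 3 had 22 to 27 tags and no signal within the peak, although AUUAAA lay in the last 30 nt before the 3′ edge of the 27-tag peak, upstream of the peak itself, which is 16 nt wide. HNRNPD had 5 peaks over 1561 nt, led by 446 tags at an annotated end and 232 tags with AUUAAA 497 nt past one. HNRNPU had the widest spread, 8 peaks over 3425 nt, of which 363 and 359 tags were 477 nt apart. Its most distal peak, of 40 tags, had no signal, lay at sense Alu-like sequence and had an A-rich stretch within 20 nt downstream. Its 51-tag and 176-tag peaks also had such a stretch within 20 nt, as did the 201-tag and 48-tag peaks of HNRNPR. The 363-tag peak of HNRNPU was also listed under a small nucleolar RNA gene. HNRNPK had 3 peaks of 276, 274 and 176 tags within 190 nt, HNRNPR 4 over 857 nt led by 513 tags, HNRNPH1 3 led by 204 tags and HNRNPL 2 of 145 and 34 tags. The tallest peak was the most distal one in HNRNPM and HNRNPH1 and in none of the other 8 genes. In HNRNPM this could not be otherwise, since it had a single 3′ UTR peak. The same count was not made over other genes, so it has no background here and cannot be read as particular to these genes.

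**Figure D5:**
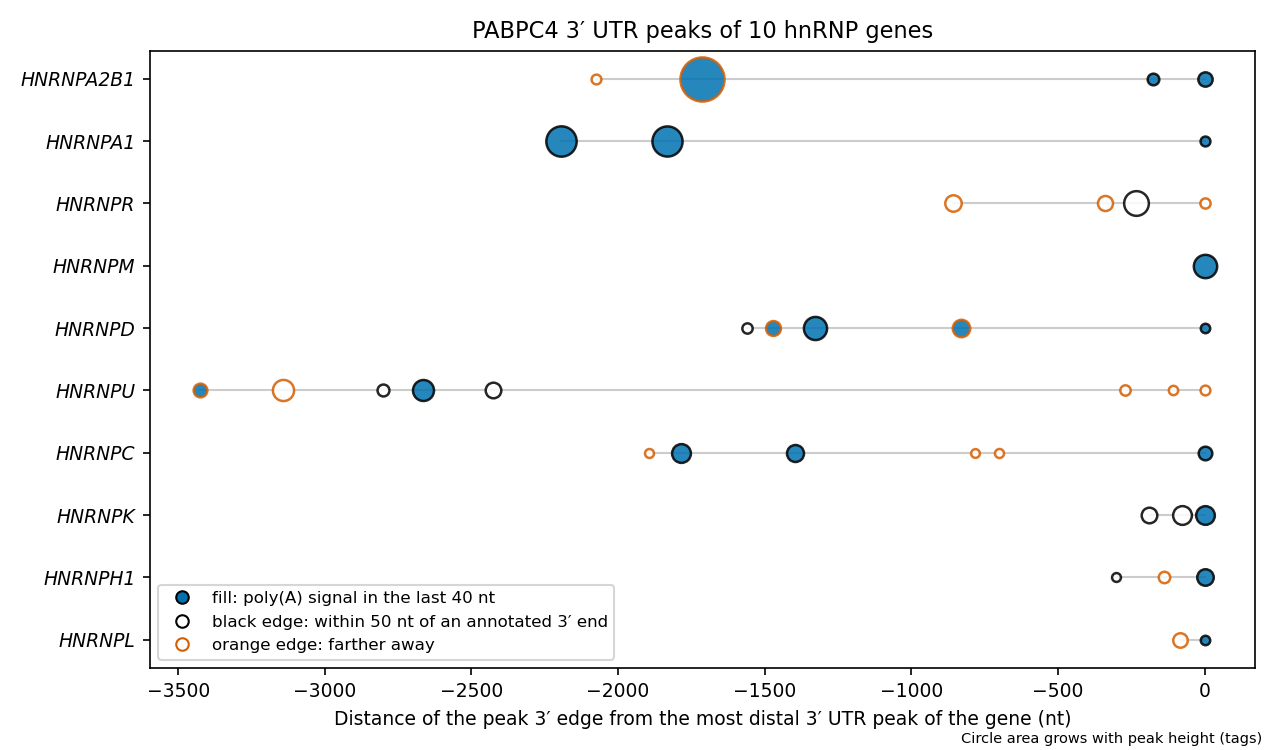
PABPC4 3′ UTR peaks of the 10 hnRNP genes, by the distance in nt of the 3′ edge of each from the most distal such peak of its gene (horizontal axis, 5′ to 3′ from left to right), with circle area growing with height in tags. A filled circle has a poly(A) signal in its last 40 nt, a black edge marks a 3′ edge within 50 nt of an annotated end and an orange edge one farther away; the largest circle, in HNRNPA2B1, has 1745 tags and an orange edge.

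PABPC4 intron peaks were lower and had other neighbours. There were 29 in 5 genes, HNRNPC with 9, HNRNPM with 8, HNRNPD with 6, HNRNPR with 4 and HNRNPH1 with 2. They ranged from 15 to 251 tags with a median of 61, against 22 to 1745 with a median of 145 in 3′ UTRs. An A-rich stretch, meaning 6 consecutive A or at least 7 A among 10 nt, was found in the 50 nt downstream of the peak at 19 of 29 (65.5%, interval 47.3 to 80.1%), and at 71.2% of intron peaks of the list. Within 20 nt it was found at 12 of 29 (41.4%). Priming on genomic A, which such a stretch would allow, was not tested. Alu-like sequence in sense lay at 21 of 29 (72.4%, interval 54.3 to 85.3%), against 53.1%. It was antisense at 0 of the 80 PABPC4 peaks, which allows a share of up to 3.75% by the same limit of 3 counts, against 1.08% of the list. Of 53 sense elements in the 10 genes, 19 had a PABPC4 peak within 100 nt (35.8%, interval 24.3 to 49.3%), against 12.3% of those in all genes with a PABPC4 3′ UTR peak. The median tallest 3′ UTR peak was 404.5 tags in the 10 genes and 73 in those genes. No share matched for that height was made, so 35.8% cannot be read as particular to these genes.

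In the HNRNPC gene, the 9 PABPC4 intron peaks fell in 4 introns. Intron 2 held 4, of 32, 18, 61 and 137 tags, all at sense Alu-like sequence, and 3 of them lay together at chr14:21245867-21246056. Intron 6 held 3, of 15, 24 and 15 tags, also in sense, and introns 1 and 5 held 1 each, of 23 and 78 tags, without Alu-like sequence. Intron 2 thus carried both HNRNPC peaks on antisense elements and PABPC4 peaks on sense elements, the nearest pair 702 nt apart.

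In the sister genes, all 6 HNRNPD intron peaks lay in intron 2, and the tallest PABPC4 intron peak of the set was among them, with 251 tags at chr4:82367045-82367141, an A-rich stretch downstream and no Alu-like sequence. The HNRNPM peaks were spread over 6 introns at 28 to 160 tags, with 3 in intron 12, and those of HNRNPR over 3 introns at 22 to 193 tags. In HNRNPL, PABPC4 peaks of 108 and 42 tags lay in intron 6, within an exon of 1 retained-intron transcript. Those of 83 and 87 tags lay in intron 4, where no HNRNPL transcript has an exon and the exon annotated on that strand is of another gene. PABPC4 peaks in coding sequence were few, with 63 and 85 tags in HNRNPC, 65 in HNRNPH1, 26 in HNRNPR and 37 in HNRNPU.

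Distances between the sites of both proteins were measured in these genes only, with no value over the lists beside them. They therefore cannot be read as particular to these genes. There, 22 of 28 HNRNPC peaks were intronic and 39 of 80 PABPC4 peaks were in 3′ UTRs. The median distance from an HNRNPC peak to the nearest PABPC4 peak of the same gene was 2490 nt, with a range of 0 to 10090 nt, and 9 of 28 lay within 1000 nt. In the HNRNPC gene the median was 4827 nt, and its HNRNPC peaks were 28222 to 55840 nt from the nearest PABPC4 3′ UTR peak. Distances to a 3′ UTR peak were also long in HNRNPR (10431 to 21213 nt), HNRNPD (18955 nt), HNRNPM (7113 and 25147 nt), HNRNPH1 (7811 to 8442 nt) and HNRNPL (5315 and 6700 nt). They were 1876 to 8034 nt in HNRNPA2B1. Only in HNRNPU, at 263 nt, was an HNRNPC peak within 1000 nt of a PABPC4 3′ UTR peak.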

How the data were processed

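The members and gene lists were chosen with earlier results of these data known. For HNRNPC the authors collapsed reads by molecular identifier (UMI-tools), trimmed them (cutadapt), aligned them to hg38 with BWA 0.7.17 and called peaks with CTK; how PABPC4 tags were handled is not given separately in the sources used here. Replicates were pooled into 1 list per protein. The deposited signal is peak height in unique tags, not scaled to depth, and the read numbers are unknown here. The deposited lists' name gives HITS-CLIP for HNRNPC whereas the labels give irCLIP, which bears on whether tags end at the cross-link.

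Each position was counted once, which removed 1281 surplus entries (HNRNPC) and 6271 (PABPC4). Gene IDs matched symbols for 4090 of 4098 and 13155 of 13189 IDs. The centre of each peak decided its feature on the same strand, as 3′ UTR, CDS, 5′ UTR, non-coding exon or intron, in that order, with GENCODE 44 and bedtools 2.31.1; UTR and CDS came from protein_coding transcripts. Alu-like sequence was a blastn 2.17.0 hit of RN7SL1 (E at most 1e-05 for peak windows, 100 over the genome, hits within 100 nt merged). Sequences were read with pysam 0.24.0. The feature assignment was tested on simulated peaks of known 3′ UTR or CDS position. Genes named by rule were the 10, the 3 other hnRNP genes with most HNRNPC peaks (1 of them not reported here) and the 3 genes most like HNRNPC by peak counts; RALY and HNRNPUL2 were added after their values were seen.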

Additional observations from a re-analysis of the deposited data

How the results depend on the processing

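Of 72 recalculations of 11 results, 68 stayed within 1.5 times a count or distance, or within the interval of a share, and 4 moved. With protein_coding transcripts only, 3 in place of 6 genes had an HNRNPC exon peak. The U run share of HNRNPC peaks was 42.9% within the peak alone, in place of 67.9%. The share of PABPC4 intron peaks with an A-rich stretch was 41.4% within 20 nt, in place of 65.5%. Leaving out peaks whose centre matched another place left 47 of 80 PABPC4 peaks, an alternative chosen after seeing the data, as was counting coding parts of nonsense-mediated decay transcripts. The cause of these moves was not tested. No paired analysis was possible because each list merges both samples of its protein, and for that reason neither sample could be left out in turn. Depth limits the lists in an unknown way: a gene without a peak, such as HNRNPA1 or HNRNPK for HNRNPC, may be bound below what the peak caller could call.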
